A study of Mus musculus with 8 samples.

Results

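The genes that flank Ptk7 on mouse chromosome 17 were examined in epididymal ducts of E18.5 embryos, within 5 Mb to either side of the Ptk7 midpoint (GRCm38, gene at 46564451-46629504), with Ptk7 itself left out. The count table held 163 genes in this window, and 88 of them, of 46517 genes in the table, had at least 10 counts in 4 or more libraries and were kept as members. Of the 75 genes that were not kept, 31 had no count in any library. Among those below the minimum were Tspo2, a gene of the red cell lineage, Guca1b and Opn5, which serve light sensing, and Dazl, a germ cell gene. No member was kept through the libraries of 1 group alone, and 6 members fell under 10 counts in at least 1 library. The members lay between 42315947 and 51179349, with 45 on the low-coordinate side of Ptk7 and 43 on the high-coordinate side. At the edge of the window, Tbc1d5 lay just inside (4.36 Mb from Ptk7, log2 fold change -0.20) and Satb1, a chromatin organiser, just outside (5.19 Mb, -0.13).

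RNA was sequenced from 4 libraries labelled Ptk7 conditional knockout (cKO, numbered 1, 2, 4 and 5) and 4 control libraries (numbered 1, 3, 4 and 6). The cKO embryos paired a floxed Ptk7 allele with the disrupted allele Xst87, and the controls paired a floxed allele with a wild-type one. Both groups carried the T-Cre transgene, which drives recombination in the mesoderm under Brachyury regulation, and the mT/mG membrane reporter. Every embryo thus carried a floxed allele, and the labelled genotypes differed in the other copy. The labels name neither strain background, sex nor litter. They also do not say that each library came from its own embryo, so the spread that the p-values rest on may be technical in part.

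Genes close to a targeted allele are inherited with it on the same stretch of chromosome until recombination separates them, and such a stretch can carry the sequence variants of the chromosome on which the allele was made. The genes beside Ptk7 form a dense run that includes Srf, the serum response factor that drives muscle and cytoskeletal genes, Vegfa, a growth factor for blood vessels, and Runx2, the regulator of bone formation. Many of their neighbours do general work in the cell, such as protein folding, mitochondrial translation and ubiquitin ligation.

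Total counts per library ranged from 24807970 to 29590547, and the members took 0.612% to 0.678% of them, lowest in control 3. Ptk7 stood at 7.33, 7.59 and 12.5 CPM (counts scaled to library size by TMM factors) in the libraries labelled cKO 1, 2 and 4, and at 194 CPM in the library labelled cKO 5, against 189, 112, 313 and 169 CPM in controls 1, 3, 4 and 6. The library labelled cKO 5 thus had Ptk7 inside the range of the controls, unlike the other cKO libraries. Whether its label holds was not tested. Each direction given for the knockout label counts this library in, except where a fit without it is named. Control 3 stood apart among the controls in both directions, being the lowest of the 8 libraries for 26.5% of all tested genes and the highest for 24.2%. All 15 duct epithelium markers were detected. The marker counts at an unadjusted p under 0.05 are to be read beside the shares over all tested genes. These were 3.51% higher and 4.82% lower. Summed smooth muscle markers ran from 2529 to 3217 CPM in cKO and from 3254 to 3887 CPM in control, with 7 of 10 lower and 1 higher at an unadjusted p under 0.05, and summed mesothelium markers from 713 to 930 CPM in cKO and from 559 to 659 CPM in control, with 6 of 8 higher. Summed neuron and Schwann cell markers ran from 90.8 to 136 CPM in cKO and from 74.8 to 95.9 CPM in control (4 of 8 tested higher, 0 lower), and summed erythroid markers from 1363 to 3966 CPM in cKO and from 795 to 2267 CPM in control (2 of 7 tested higher, 0 lower). In the endothelium, macrophage, mesenchyme and testis lists at most 1 marker was higher and at most 1 lower. The library labelled cKO 5 had the highest cKO sum for mesenchyme (23995 CPM), endothelium (502 CPM) and macrophage markers (304 CPM). It was also the highest cKO library for mesothelium, smooth muscle and erythroid markers, and the lowest for neuron and Schwann cell and testis markers. Control 3 had the lowest control sum for mesenchyme (16567 CPM), endothelium (393 CPM) and macrophage markers (159 CPM). Duct epithelium markers overlapped (1067 to 1462 CPM in cKO, 1233 to 1418 CPM in control), with 8 of 15 lower and 1 higher. Krt19 was in both the duct epithelium and the mesothelium list and counts in both. The part of these cell types in the results below was not tested, and in bulk RNA fewer cells of a type and less RNA per cell cannot be told apart.

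No gene within 5 Mb of Ptk7 passed the test of the knockout label against control. With edgeR's quasi-likelihood test on all 8 libraries, 0 of 88 members had an adjusted p under 0.05, as did 0 of all 16576 tested genes (0.0%), and the smallest adjusted p of a member was 0.304. An unadjusted p under 0.05 was met by 8 members (9.09%) and by 8.33% of all tested genes, so the share of the members lay near the background. Of these members 5 were higher in cKO (5.68%, against 3.51% of all genes) and 3 were lower (3.41%, against 4.82%). DESeq2 called 0 members and 187 of all genes (1.13%), with 1295 genes given no adjusted p. Without control 3 the counts were again 5 higher and 3 lower members (3.15% and 3.96% of all genes), and without control 3 and the library labelled cKO 5 they were 7 and 4 (4.5% and 5.04%), with 0 members and 0.0181% of all genes at an adjusted p under 0.05. The median log2 fold change of the members was 0.04, against 0.01 over all tested genes, and 53 of 88 members (60.2%) lay above 0, against 51.4% of all genes. Without control 3 the median was 0.0096, against 0.0041 over all tested genes, and 49 members lay above 0. Without control 3 and the library labelled cKO 5 it was 0.0029, against 0.0080, and 46 members lay above 0. Most differences were small: 65 members had a log2 fold change under 0.25 in size, 23 (26.1%, against 20.9% of all genes) reached that size, and 1 member reached 1. That gene was Mep1a, a secreted and membrane metalloprotease subunit, at -1.25 with an SE of 0.87, and its groups overlapped (0.153 to 5.72 CPM in cKO, 1.63 to 7.59 CPM in control). The lower members numbered 5 (5.68%) without the library labelled cKO 1, against 3.92% of all genes in that fit, and 5 without control 4, against 3.85%. The higher members numbered 3 (3.41%) without cKO 2, against 2.87% of all genes.

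**Figure D1:**
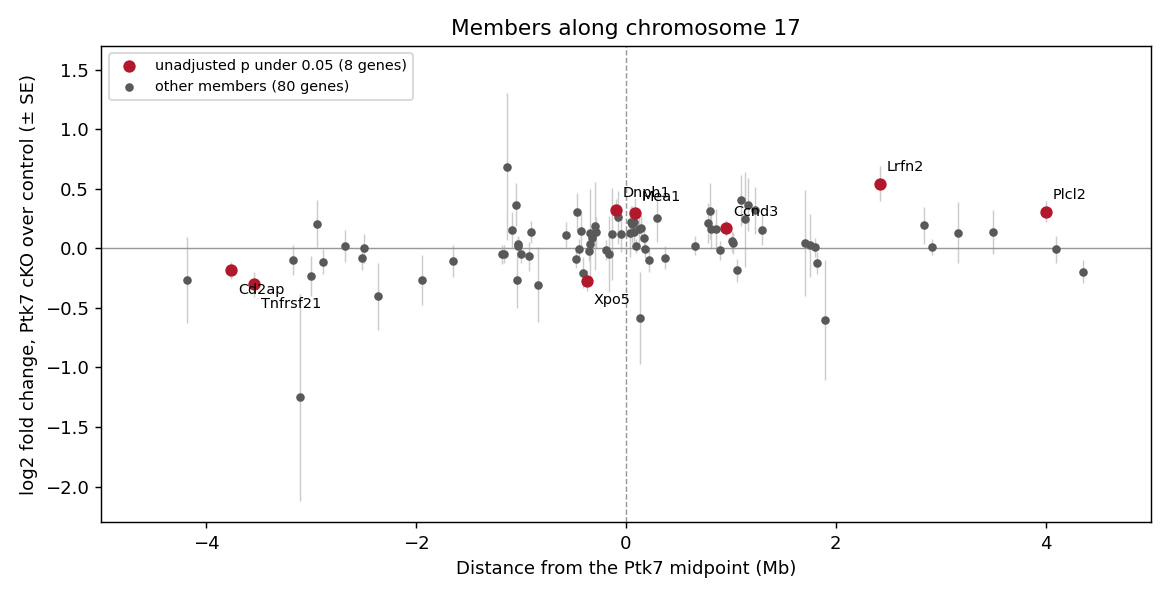
Each point is 1 of the 88 members, placed by its distance from the Ptk7 midpoint in Mb, with its log2 fold change (Ptk7 cKO over control, all 8 libraries) and SE as a bar. Red points mark the 8 members at an unadjusted p under 0.05. On the low-coordinate side of Ptk7 1 of them was higher and 3 were lower. On the high-coordinate side 4 were higher and 0 lower. The 5 higher ones are Dnph1, Mea1, Ccnd3, Lrfn2 and Plcl2.

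Of the members that reached the unadjusted limit, 5 were higher in the knockout label. Dnph1, a hydrolase that removes modified nucleotides from the nucleotide pool, lies 0.0988 Mb from the Ptk7 midpoint (17:46496789-46499618, plus strand). It had 34.5, 34.03, 32.2 and 27.9 CPM in cKO 1, 2, 4 and 5, against 26.8, 23.6, 26.8 and 25.7 CPM in controls 1, 3, 4 and 6. The groups did not overlap, with cKO 5 the lowest of its group and close to the controls. Its log2 fold change was 0.32 (SE 0.09, edgeR adjusted p = 0.309).

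The 250 bases upstream of the RefSeq start of Dnph1 (GRCm38, chr17:46496539-46496788, plus strand, taken from RefSeq's GRCm38.p6 promoter table) are shown because this gene had the smallest p of any member once the library labelled cKO 5 was left out. Capitals mark matches to 2 of the 4 motifs searched on both strands, which were the CCAAT box, the E-box CACGTG, the TATA box TATAAA and the CArG box. Nfya, which binds the CCAAT box, Tfeb, which binds the E-box, and Srf, which binds the CArG box, are themselves encoded in the window.
Dnph1: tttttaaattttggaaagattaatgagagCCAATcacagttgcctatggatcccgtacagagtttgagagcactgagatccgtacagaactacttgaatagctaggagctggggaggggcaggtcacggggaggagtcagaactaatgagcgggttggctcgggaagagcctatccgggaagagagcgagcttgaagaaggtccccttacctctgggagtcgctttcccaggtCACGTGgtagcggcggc
The stretch held 1 match to CCAAT (read on the other strand as ATTGG), a sequence that 33.8% of the 32851 promoter windows held in the same 250 bases. It also held 1 match to CACGTG, found in 6.02% of them. It held no match to TATAAA or to the CArG box. A match is a description of the letters and not a site of binding. The predicted gene Gm26904, which had no count in any library, overlaps this stretch in the count table.

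Lrfn2, a synaptic adhesion protein with leucine-rich repeats, lies 2.42 Mb from Ptk7. It had 6.18, 5.11, 5.38 and 4.91 CPM in cKO 1, 2, 4 and 5, against 4.19, 3.93, 3.13 and 3.57 CPM in controls 1, 3, 4 and 6, so every cKO library stood above every control. Its log2 fold change of 0.54 (SE 0.15, edgeR adjusted p = 0.304) was the largest among the 8 members at the unadjusted limit. Plcl2, a phospholipase C relative without catalytic activity, lies 4.002 Mb away. It had 36.8, 29.95, 32.0 and 34.2 CPM in cKO, against 28.5, 26.1, 28.1 and 24.7 CPM in control, again with no overlap (log2 fold change 0.31, SE 0.09, edgeR adjusted p = 0.340).

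Ccnd3, the G1 cyclin D3, was among the more abundant members. It had 481, 485, 479 and 495 CPM in cKO, against 426, 404, 444 and 453 CPM in control, and the groups did not overlap. The difference was a log2 fold change of 0.17 (SE 0.07, edgeR adjusted p = 0.516). Mea1, named for an antigen first described in male tissue, had 67.1, 68.4, 54.9 and 58.1 CPM in cKO, against 56.7, 37.4, 53.1 and 55.3 CPM in control (0.30, SE 0.13, edgeR adjusted p = 0.587). Its groups overlapped at cKO 4, and control 3 was far below the other controls. Without control 3 the log2 fold change of Mea1 was 0.17 (SE 0.09) and it no longer met the limit (edgeR unadjusted p = 0.0673). Ccnd3 overlaps Bysl and Mea1 overlaps Ppp2r5d on the opposite strand, and since the strand setting of the counting is not given, reads of such pairs cannot be told apart. In all, 12 members overlapped another kept gene.

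The 3 members that reached the limit in the other direction were Xpo5, Tnfrsf21 and Cd2ap. Xpo5, the exporter of microRNA precursors from the nucleus, had 51.5, 55.9, 50.6 and 60.1 CPM in cKO 1, 2, 4 and 5, against 62.0, 72.9, 69.0 and 59.3 CPM in controls 1, 3, 4 and 6 (log2 fold change -0.27, SE 0.09, edgeR adjusted p = 0.389). Only cKO 5 reached into the control range. Tnfrsf21, a death domain receptor of the tumour necrosis factor family, had 58.6, 62.7, 50.8 and 48.1 CPM in cKO, against 68.8, 78.3, 63.3 and 60.9 CPM in control (-0.30, SE 0.10, edgeR adjusted p = 0.455). Cd2ap, an adaptor between membrane proteins and actin, had 76.3, 74.1, 75.7 and 82.8 CPM in cKO, against 91.2, 94.0, 86.0 and 79.7 CPM in control (-0.18, SE 0.07, edgeR adjusted p = 0.513). For Tnfrsf21 the overlap came from cKO 2 and control 6, and for Cd2ap from cKO 5 and control 6.

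Over all 88 members, 7 (7.95%) had groups that did not overlap, against 5.71% of all tested genes. Those higher in cKO were Dnph1, Lrfn2, Plcl2, Ccnd3, Rrp36 and Tfeb (6 members, 6.82%, against 2.64% of all genes), and the 1 lower in cKO was Tbc1d5 (1.14%, against 3.07%). Tbc1d5, a regulator of Rab GTPases on endosomes, had 31.8, 30.1, 31.7 and 31.7 CPM in cKO, against 34.3, 43.2, 32.5 and 33.5 CPM in control (log2 fold change -0.20, SE 0.10, edgeR adjusted p = 0.636). Control 3 was its highest library, and without control 3 the log2 fold change was -0.09 (SE 0.06).

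**Figure D2:**
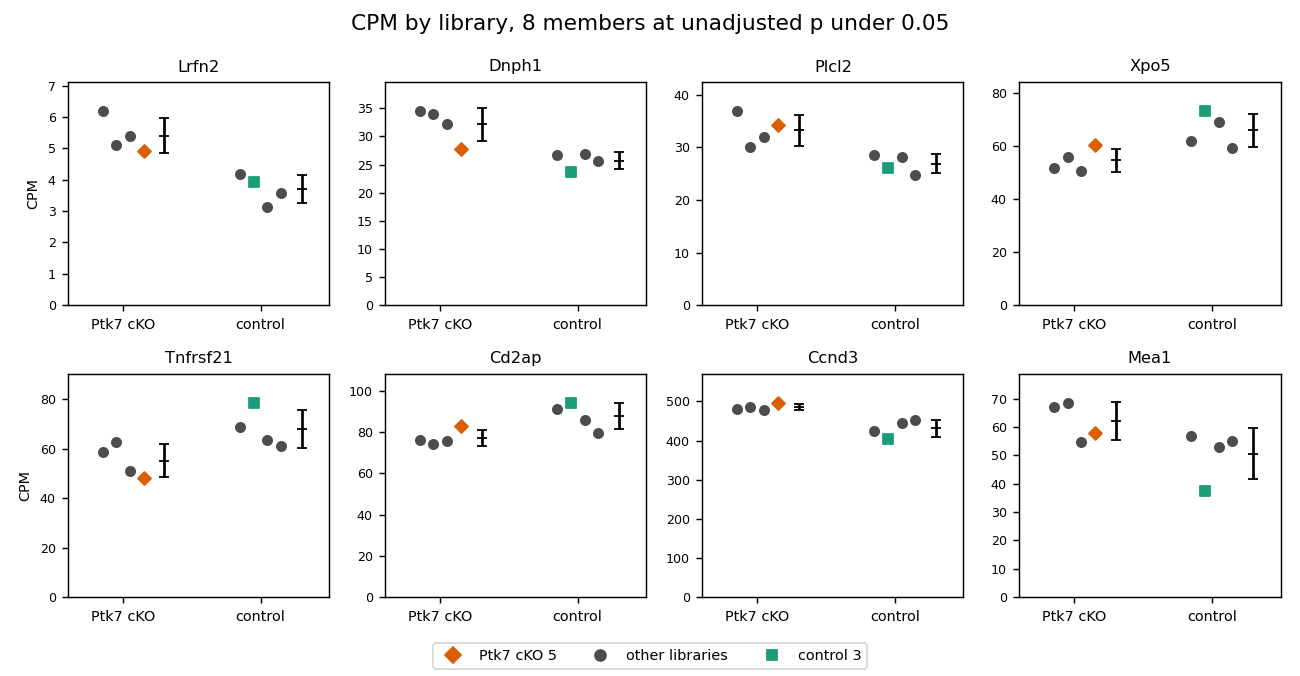
CPM on a linear axis from 0 for the 8 members at an unadjusted p under 0.05, with the 4 Ptk7 cKO libraries left and the 4 control libraries right in each panel; the dash and bar beside the points are the mean and SD (n = 4). Library cKO 5 (diamond) lies near the controls in Dnph1 at 27.9 CPM and Xpo5 at 60.1 CPM, and control 3 (square) lies lowest in Mea1 at 37.4 CPM.

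The 10 members nearest to Ptk7 lie within 0.0988 Mb of its midpoint, and all 10 had a log2 fold change above 0 with all 8 libraries, with a median of 0.21. In 9 of these 10 genes control 3 was the lowest of the 8 libraries. Without control 3 the median of the 10 was 0.06 and 8 were above 0. Without control 3 and the library labelled cKO 5 the median was 0.05 and 7 were above 0. The median of these neighbours thus moved with 1 control library, whose part in it was measured only by leaving it out.

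Srf, 0.0455 Mb from Ptk7, shows this. It had 125, 113, 119 and 138 CPM in cKO 1, 2, 4 and 5, against 129, 74.2, 131 and 121 CPM in controls 1, 3, 4 and 6. Control 3 stood at 0.585 of the mean of the other controls, and the cKO libraries overlapped the rest. The log2 fold change of Srf was 0.12 (SE 0.16) with all libraries and -0.03 (SE 0.08) without control 3. Klc4, a kinesin light chain gene and the closest member to Ptk7, had 27.9, 25.2, 23.5 and 24.9 CPM in cKO, against 28.3, 12.5, 25.7 and 26.2 CPM in control. Its log2 fold change of 0.13 (SE 0.21) likewise turned to -0.08 (SE 0.08) without control 3.

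The cullins on either side of Ptk7, scaffolds of ubiquitin ligases, followed the same layout. Cul7 had 161, 185, 183 and 214 CPM in cKO, against 179, 109, 179.8 and 178 CPM in control (log2 fold change 0.20, SE 0.15, and 0.05, SE 0.09, without control 3). Cul9, at a much lower level per length, had 4.41, 4.96, 5.84 and 5.93 CPM in cKO, against 5.53, 2.56, 4.70 and 4.89 CPM in control (0.26, SE 0.22, and 0.07, SE 0.16, without control 3). In both genes the cKO and control ranges overlapped, and the library labelled cKO 5 was the highest.

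Mrpl2, a protein of the mitochondrial ribosome, averaged 61.4 ± 3.89 CPM in cKO and 52.7 ± 10.8 CPM in control (SD, n = 4 each), with a log2 fold change of 0.22 (SE 0.14). Without control 3 it was 0.09 (SE 0.07). Rrp36, which acts in ribosomal RNA processing, had 32.3, 30.4, 31.6 and 31.3 CPM in cKO, against 29.9, 20.4, 27.6 and 30.03 CPM in control, a gap between the groups of less than 1 CPM (0.22, SE 0.12, edgeR adjusted p = 0.668). Without control 3 the log2 fold change of Rrp36 was 0.11 (SE 0.07). Klhdc3, a kelch repeat substrate receptor of a ubiquitin ligase, averaged 142 ± 1.58 CPM in cKO and 129 ± 16.7 CPM in control (SD, n = 4 each; 0.14, SE 0.09, and 0.05, SE 0.06, without control 3). Ppp2r5d, a regulatory subunit of protein phosphatase 2A, was the exception among the 10, with 146 ± 3.45 CPM in cKO and 144 ± 2.88 CPM in control (SD, n = 4 each) and control 3 at 147 CPM, inside the range of the cKO libraries (0.02, SE 0.06).

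**Figure D3:**
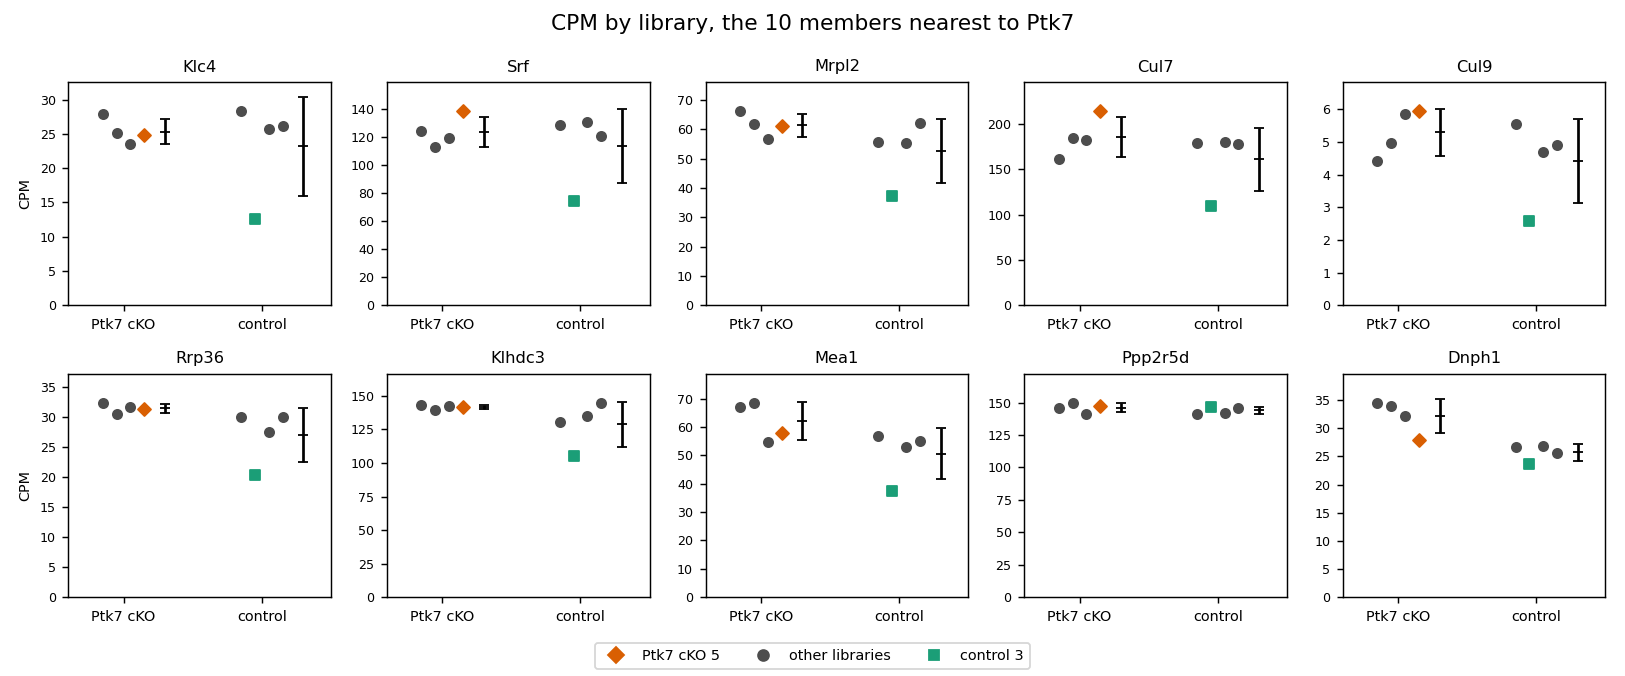
CPM on linear axes from 0 for the 10 members nearest to the Ptk7 midpoint, in order of distance, with the 4 Ptk7 cKO libraries left and the 4 control libraries right; the dash and bar are the mean and SD (n = 4). Control 3 (square) is the lowest library in 9 of the 10 panels, and Ppp2r5d is the exception.

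The low level of control 3 was counted along the whole window. It was the lowest of the 8 libraries in 40 of 88 members (45.5%), against 26.5% of all tested genes, and the highest in 17 members (19.3%), against 24.2%. Within 1 Mb of Ptk7 it was the lowest in 27 of 44 genes (61.4%), from 1 to 2.5 Mb in 11 of 27 (40.7%) and from 2.5 to 5 Mb in 2 of 17 (11.8%). On the rest of chromosome 17 it was the lowest in 33.0% of 681 genes. Control 3 was the highest in 6.82%, 25.9% and 41.2% of the genes in the same bins, from near to far. On the rest of chromosome 17 it was the highest in 19.1%. No test of this pattern was made, and neighbouring genes in 1 library are not independent. Genes were not lowered by a common factor: control 3 stood at 0.468 of the mean of the other controls in Klc4 and 0.496 in Tbcc, a tubulin folding cofactor, but at 1.03 in Ppp2r5d. In other members it stood above that mean, such as 1.22 in Tnfrsf21 and 1.31 in Mrps10. The lysosome regulator Tfeb, 1.17 Mb from Ptk7, had 13.0, 12.4, 13.6 and 13.2 CPM in cKO, against 11.3, 5.16, 12.1 and 11.9 CPM in control, with control 3 at 0.439 of the other controls. Its log2 fold change was 0.37 (SE 0.22, edgeR adjusted p = 0.696) with all libraries and 0.15 (SE 0.09) without control 3. The median log2 fold change of the 44 members within 1 Mb was 0.12, and 0.01 without control 3.

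Because the library labelled cKO 5 kept Ptk7 at 99.2% of the control mean, the same test was run without it and its own value was then set beside the others. With 3 cKO and 4 control libraries, 11 members (12.5%) had an unadjusted p under 0.05, 7 higher and 4 lower, against 8.77% of all genes (3.75% higher, 5.01% lower). None of the 88 passed an adjusted p of 0.05 in edgeR, where 1 gene of 16576 (0.00603%) did, which was Ptk7 itself. DESeq2 without that library called 1 member, Dnph1 (log2 fold change 0.39, DESeq2 adjusted p = 0.0130), or 1.14% of the members, where it called 1.13% of all genes. Dnph1 was not called by DESeq2 on all 8 libraries (adjusted p = 0.0826), nor by edgeR without that library (adjusted p = 0.226). Of the 11 members, 6 also met the unadjusted limit with all libraries, and the fits share 7 libraries.

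In 8 of these 11 members (72.7%) the library labelled cKO 5 lay nearer to the control mean than to the mean of the other cKO libraries on the log2 scale, against 49.8% of the 1453 genes chosen in the same way from the whole table. It lay inside the control range in 4 members (36.4%, against 36.3%) and beyond the controls on the far side in 3 (27.3%, against 8.12%). It lay inside the range of the other cKO libraries in 2 (18.2%, against 29.9%) between the ranges in 2 (18.2%, against 14.8%), and beyond the other cKO libraries in 0 (against 7.71%). Within 1 Mb of Ptk7 it lay nearer to the control mean in 5 of 6 members, and beyond 1 Mb in 3 of 5. The excess depended on how the genes were chosen. Among the 12 members whose cKO 1, 2 and 4 values did not overlap the controls (13.6%, against 11.0% of all genes), cKO 5 lay nearer to the control mean in 6, against 50.7% of the genes chosen in that way. These are counts over few genes and were not tested.

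Polh and Xpo5, which lie next to each other, were both among these 8 members, with cKO 5 beyond the controls in Polh and only a little nearer to the control mean in Xpo5. Polh, the DNA polymerase eta that copies past ultraviolet damage, had 20.2, 19.2 and 21.4 CPM in cKO 1, 2 and 4 and 29.6 CPM in cKO 5, against 25.5, 27.8, 27.1 and 23.5 CPM in controls 1, 3, 4 and 6. The library labelled cKO 5 stood above every control, while the other cKO libraries stood below them all. The log2 fold change of Polh was -0.20 (SE 0.13, edgeR adjusted p = 0.716) with all libraries and -0.36 (SE 0.09, edgeR adjusted p = 0.280) without cKO 5. That of Xpo5 was -0.32 (SE 0.09, edgeR adjusted p = 0.336) without it.

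Polh (minus strand) and Xpo5 (plus strand) are transcribed away from each other from nearby starts. The 169 bases between their RefSeq starts are shown because both genes read out from this 1 stretch (GRCm38, chr17:46202642-46202810, plus strand, from RefSeq's GRCm38.p6 promoter table). They contain none of the 4 motifs, so no letter is in capitals.
Polh-Xpo5: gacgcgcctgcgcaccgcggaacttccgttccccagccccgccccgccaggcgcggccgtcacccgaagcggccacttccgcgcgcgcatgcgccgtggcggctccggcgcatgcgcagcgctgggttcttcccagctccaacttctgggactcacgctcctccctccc
G and C made up 74.6% of the stretch. Within the 169 bases before the start, 26.5% of all promoter windows held CCAAT, 4.66% CACGTG, 8.38% TATAAA and 1.02% a CArG box.

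The window held 8 such divergent pairs of members with annotated starts at most 1000 bases apart. The signs of the log2 fold changes were the same within 4 of the 8 pairs. Besides Polh and Xpo5 these were Klhdc3 with Mea1 (0.14 and 0.30), Bysl with Med20 (0.06 and 0.04), and Cdc5l with the unnamed gene B230354K17Rik (-0.05 for each).

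Other members placed the library labelled cKO 5 in different ways. Nfkbie, an inhibitor of NF-kappa-B, had 4.605, 4.998 and 4.20 CPM in cKO 1, 2 and 4 and 8.92 CPM in cKO 5, against 7.94, 6.39, 7.55 and 5.44 CPM in control (log2 fold change -0.57, SE 0.17, edgeR adjusted p = 0.351 without cKO 5). Mrps10, of the mitochondrial ribosome, had 22.7, 19.9 and 19.2 CPM in cKO 1, 2 and 4 and 12.9 CPM in cKO 5, against 15.2, 19.6, 13.8 and 15.9 CPM in control (0.35, SE 0.13, edgeR adjusted p = 0.486 without cKO 5). In both genes cKO 5 lay on the far side of the controls. Rsph9, a radial spoke protein of motile cilia, had 7.29, 6.60 and 7.10 CPM in cKO 1, 2 and 4 and 4.95 CPM in cKO 5, against 4.62, 6.12, 5.19 and 5.04 CPM in control, so that cKO 5 lay among the controls. Rsph9 overlaps Mrps18a on the opposite strand, which averaged 33.7 CPM in cKO and 35.9 CPM in control. Reads of this pair cannot be told apart, so the level of Rsph9 is uncertain. Plcl2 differed from Nfkbie, Mrps10 and Rsph9, with cKO 5 at 34.2 CPM inside the range of the other cKO libraries (29.95 to 36.8 CPM), as did Mea1 at 58.1 CPM.

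**Figure D4:**
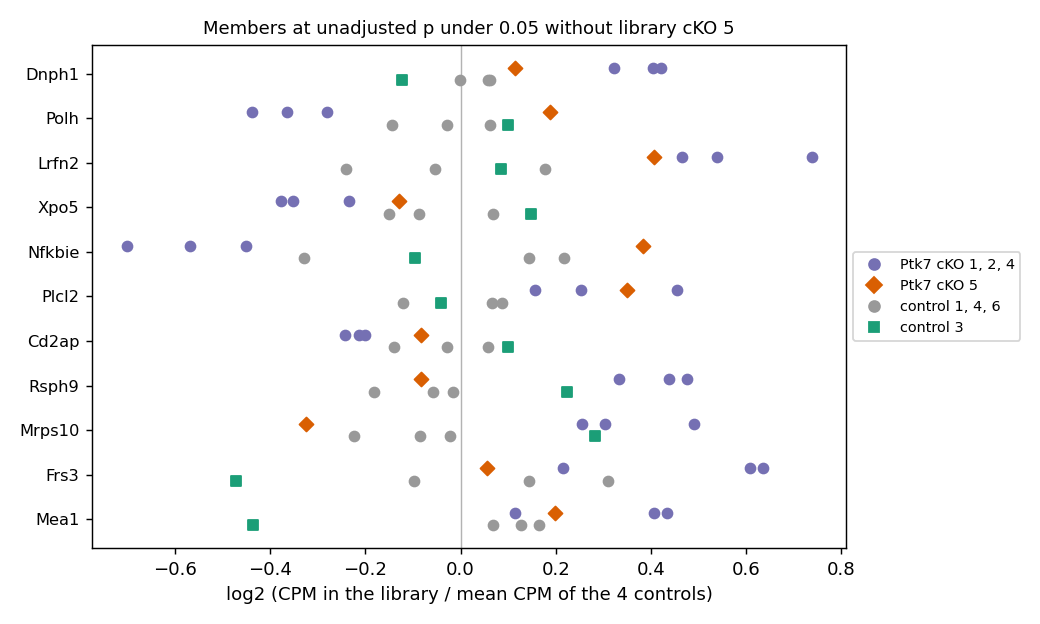
For the 11 members at an unadjusted p under 0.05 in the edgeR fit without library cKO 5, each symbol is 1 library's CPM as a log2 ratio to the mean of the 4 controls, with cKO libraries above and controls below within each gene; genes are ordered from the smallest p at the top. Library cKO 5 (orange diamond) was not used to choose the genes and lies nearer to the control mean than to the mean of cKO 1, 2 and 4 in 8 of the 11.

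The share of genes at the unadjusted limit did not change in 1 direction with distance from Ptk7. With all 8 libraries it was 9.09% of 44 genes within 1 Mb, 3.70% of 27 genes from 1 to 2.5 Mb, 17.6% of 17 genes from 2.5 to 5 Mb, 1.69% of 59 genes from 5 to 10 Mb and 8.04% of 622 genes farther out on chromosome 17. The 2.5 to 5 Mb bin holds under 20 genes, and its share is 3 genes. Without the library labelled cKO 5 the shares were 13.6%, 11.1%, 11.8%, 3.39% and 7.56%. Of the chromosomes with at least 100 tested genes, chromosome 17 ranked 13 of 20 by this share (7.66% of 770 genes). By side, 1 of 45 low-coordinate members was higher and 3 lower at the unadjusted limit (median log2 fold change -0.01). Of 43 high-coordinate members, 4 were higher and 0 lower (median 0.13). Over all tested genes 3.51% were higher and 4.82% lower. Without the library labelled cKO 5, 2 were higher and 4 lower on the low-coordinate side. On the high-coordinate side 5 were higher and 0 lower (3.75% and 5.01% of all genes). Without control 3, Mea1 on the high-coordinate side no longer met the limit (edgeR unadjusted p = 0.0673). Rsph9 on the low-coordinate side then met it as a higher member (log2 fold change 0.39, edgeR unadjusted p = 0.0363). The medians by side were not computed without control 3. The split by side was not tested.

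**Figure D5:**
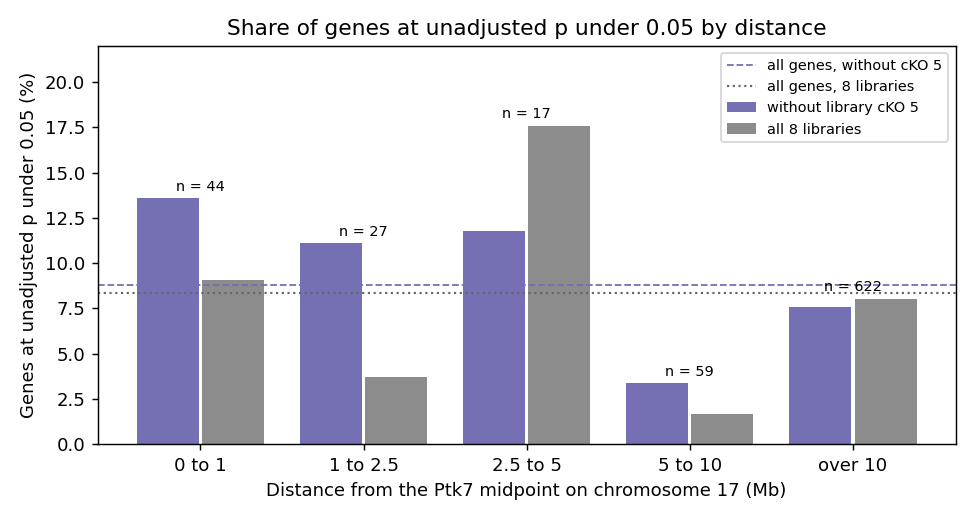
Bars give the percentage of genes at an unadjusted p under 0.05 (edgeR) in bins of distance from the Ptk7 midpoint on chromosome 17, without library cKO 5 (purple) and with all 8 libraries (grey), with the number of genes above; lines give the same shares over all 16576 tested genes, 8.77% and 8.33%. The bins within 5 Mb hold 44, 27 and 17 genes.

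The members were next described by role, with no test of a role as a group. The counts at an unadjusted p under 0.05 are to be read beside the 3.51% of all tested genes that were higher and the 4.82% that were lower, and the medians beside the 0.01 of all tested genes. Of 15 transcription regulators, 0 were higher and 0 lower at that limit, 7 lay above 0 and the median log2 fold change was -0.01. Among them Runx2, a regulator of bone formation, was low, at 1.996 ± 0.445 CPM in cKO and 2.40 ± 0.338 CPM in control (SD, n = 4 each; log2 fold change -0.27, SE 0.21). Runx2 overlaps Supt3 on the opposite strand, which averaged 13.3 CPM in cKO and 14.3 CPM in control, so the level of Runx2 is uncertain. Foxp4, a forkhead repressor, averaged 78.1 ± 4.93 CPM in cKO and 69.99 ± 13.3 CPM in control (SD, n = 4 each; 0.16, SE 0.13). Control 3 was its lowest library at 50.8 CPM, and without control 3 the log2 fold change of Foxp4 was 0.03 (SE 0.07).

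Of 14 growth factors, receptors and signal transducers, 2 were higher (Lrfn2 and Plcl2) and 1 lower (Tnfrsf21), beside 3.51% higher and 4.82% lower over all tested genes, and 10 lay above 0 (median log2 fold change 0.07). This list also holds Tbcc, the tubulin folding cofactor, for which no such role is stated here. Vegfa averaged 42.6 ± 4.59 CPM in cKO and 39.4 ± 4.14 CPM in control (SD, n = 4 each; log2 fold change 0.12, SE 0.10). Daam2, a formin that acts downstream of Dishevelled in WNT signalling, the pathway in which Ptk7 also acts, averaged 89.5 ± 5.003 CPM in cKO and 88.6 ± 4.54 CPM in control (SD, n = 4 each; 0.01, SE 0.07), a difference well inside the spread.

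Of 11 genes of translation, ribosome assembly and protein folding, 9 lay above 0 (median log2 fold change 0.15, against 0.01 over all tested genes) and none met the unadjusted limit. These sizes depended on control 3. Without it Aars2 moved from 0.15 to 0.004, Gtpbp2 from 0.15 to 0.004 and Mrpl2 from 0.22 to 0.09. Mrps10 rose from 0.21 to 0.32, Rpl7l1 from -0.002 to 0.05 and Mrps18a only from -0.091 to -0.088. Hsp90ab1, the constitutive HSP90 chaperone and the member with the highest level per length (1023 CPM per kb over all libraries), ranged from 2942 to 3192 CPM in cKO and from 2869 to 3175 CPM in control (0.04, SE 0.07). Rpl7l1, a relative of a ribosomal protein, averaged 179.5 CPM in cKO and 179.8 CPM in control. The others of the highest level per length were Mea1, Klhdc3 and the predicted gene Gm5814. Gm5814 averaged 21.8 ± 1.92 CPM in cKO and 19.5 ± 4.75 CPM in control (SD, n = 4 each), over a model of only 378 bases, and reads it may share with other genes make it uncertain. In this gene control 3 stood at 0.587 of the mean of the other controls.

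Of 13 transporter and trafficking genes, 2 were lower (Xpo5 and Cd2ap), beside 4.82% of all tested genes, and 7 lay above 0 (median log2 fold change 0.02). Of 5 cell cycle and DNA repair genes, 2 were higher (Ccnd3 and Mea1, though no such role of Mea1 is stated here), beside 3.51% of all tested genes, and 3 lay above 0 (median 0.13). With so few genes in a list, 1 gene moves these shares by much. Tmem151b, a membrane protein among the transporter and trafficking genes, had 7.52, 9.08, 10.8 and 8.06 CPM in cKO, against 7.78, 4.89, 8.25 and 6.65 CPM in control (log2 fold change 0.37, SE 0.18, edgeR adjusted p = 0.633). Without control 3 it was 0.23 (SE 0.15). None of 6 ubiquitin ligase and protease genes, 5 metabolic enzymes, 3 blood cell genes or 2 sensory or germ cell genes met the unadjusted limit. Of the metabolic enzymes 1 lay above 0 (median log2 fold change -0.08), and of the ubiquitin ligase and protease genes 3 did (median 0.03). The remaining 16 members were in no role list, among them Dnph1 and Rsph9.

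The levels of the members resembled those of other tested genes, with a median of 6.65 CPM per kb (quartiles 1.95 and 19.97), against 5.42 CPM per kb over all tested genes (quartiles 1.49 and 15.95). The median coefficient of variation of the members was 9.47% among the cKO libraries and 13.8% among the controls, and 6.92% among the controls without control 3. Over all tested genes these values were 10.6%, 11.98% and 8.01%.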

How the data were processed

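The authors deposited raw counts per gene, 1 column per library. Per the submitters' processing notes, STAR, featureCounts and GRCm38 were used; their versions, and how strand and multi-mapping reads were treated, were not stated in sources used here. The deposited table also gives each gene's exon length, used here only for levels per kb. Symbols were matched by identifier for 46005 genes.

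Genes with at least 10 counts in 4 libraries were fitted together with edgeR 4.0.16 (R 4.3.3): TMM factors, quasi-likelihood F test on group, Benjamini-Hochberg adjustment over all 16576 genes. SE is the size of the log2 fold change divided by the square root of F, and is approximate. The biological coefficient of variation was 15.2%. No pair of libraries looked like 1 library (28 pairs, chi-square over its degrees of freedom at least 13.7). The members, role lists and marker lists were chosen with earlier results of these data known.

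The rule for named genes took Ptk7, the 10 nearest members, the 12 smallest p, the 8 smallest p without cKO 5, the 5 highest levels per kb and any called member, 24 genes beside Ptk7. Mep1a, Vegfa, Daam2, Runx2, Foxp4, Tfeb, Tbcc, Mrps10 and members named only in lists were chosen after their values were seen.

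Alternatives were other scaling factors, other filters, DESeq2 1.42.0, limma 3.58.1 voom with quality weights, leaving out each library, a block on the shared numbers 1 and 4, and windows of 1, 2.5 and 10 Mb. Leaving out cKO 5 and control 3 together, and DESeq2 without cKO 5 for results other than called members, were added after seeing the data. The code was tested on simulated counts. There edgeR called 3 of 50 genes changed 1.25-fold, 15 of 50 changed 1.5-fold and 44 of 50 changed 2-fold, at an adjusted p under 0.05. It also called 6 of 16376 unchanged genes. A missing call therefore leaves changes of the smaller sizes undecided. Figures were drawn with matplotlib 3.10.9.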

Additional observations from a re-analysis of the deposited data

Results flagged for a closer look

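In 6 of 50 groups of 4 libraries, 1 library stood far from the other 3 by Dixon's test. Its limit is set for about 1 of 20 groups that are independent and not selected. The genes here were named in part by their values in these libraries, and neighbouring genes are not independent. The 6 of 50 thus cannot be compared with that rate. Ptk7 in the library labelled cKO 5 had 194 CPM, against 7.33 to 12.5 CPM in the other cKO libraries. Nfkbie in cKO 5 had 8.92 CPM, against 4.20 to 4.998 CPM in the others. Tbc1d5 in cKO 2 had 30.1 CPM, against 31.7 to 31.8 CPM in the others, a small distance in a tight group. Control 3 gave 3 of the 6: Klc4 at 12.5 CPM, against 25.7 to 28.3 CPM in the other controls, Cul7 at 109 CPM, against 178 to 179.8 CPM, and Tbc1d5 at 43.2 CPM, against 32.5 to 34.3 CPM.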

How the results depend on the processing

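No member was called at an adjusted p of 0.05 in any fit but DESeq2 without cKO 5, which called 1. Over all genes 0 were called, but 187 by DESeq2 (187 also without cKO 5), 1 without a filter, 3 without cKO 5 and control 3, 7 under the replicate block and 0 to 2 on leaving out 1 library. Higher members at an unadjusted p under 0.05 numbered 5, with 3 to 7 on leaving out 1 library, 9 by DESeq2 without cKO 5 and 3 within 1 Mb. Lower members numbered 3, with 2 to 5 on leaving out 1 library, 5 by voom, 6 under the replicate block, and 1 within 1 Mb as within 2.5 Mb. Members within 1 Mb at that limit numbered 4, with 2 to 6 on leaving out 1 library and 7 by voom and by DESeq2 without cKO 5. The median log2 fold change was 0.04, with 0.01 to 0.07 on leaving out 1 library and 0.12 within 1 Mb.

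Of 425 log2 fold changes of the 25 named genes under alternatives, 404 kept sign and call, 5 became called (4 of Ptk7, and Dnph1 by DESeq2 without cKO 5) and 16 changed sign, none of them called. Without control 3, without both doubted libraries and under the block, Klc4 was -0.076, -0.062 and -0.076, and Srf was -0.034, -0.086 and -0.087. Srf was -0.018 by voom. On leaving out 1 library Klc4 ranged from -0.076 to 0.24 and Srf from -0.034 to 0.20. Cul7 was -0.015 without both libraries and -0.063 under the block, and Cul9 was -0.0012 under the block. Rpl7l1, at -0.0025, was 0.0014 with DESeq2 size factors, 0.0013 by DESeq2, 0.045 by voom, 0.029 without both libraries and -0.028 to 0.048 on leaving out 1 library. The cause of these changes was not tested.

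The block uses only the 4 libraries whose numbers, 1 and 4, occur in both groups. The labels do not say what a number marks, and deviations of same-numbered libraries correlated at -0.09 and 0.02 over genes, so the numbers were not taken to pair the samples. No comparison has more than 4 libraries a group.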
